A study of Rattus norvegicus with 4 samples.

Results

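The mitochondrial ribosomal proteins are nuclear-encoded parts of the mitoribosome, and their messages are read by cytosolic ribosomes before the proteins are imported. They were taken as the rows whose symbol is Mrpl (large subunit) or Mrps (small subunit) followed by a number and at most 1 letter a, b or c. This gave 75 of 31038 rows, 46 of the large and 29 of the small subunit. Ribosome footprints had been counted per gene in cultured rat myocardial cells, 2 libraries given an siRNA against the initiation factor subunit eIF3m (si3m) and 2 given a control siRNA (siNT). Both groups were grown in the same serum-containing medium, and the labels used here give no time after transfection. The labels name the cells NRVM, usually neonatal rat ventricular myocytes, while the protocol speaks of embryonic myocardium. They do not say whether the 2 libraries of a group are separate cultures, and the p-values here cover only the spread between libraries, which may be technical. RNA-seq is not used here, so a footprint change may follow the amount of message or its translation.

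The mitoribosome makes the few proteins encoded by mitochondrial DNA, core subunits of the respiratory chain and ATP synthase. Its large subunit joins amino acids and is anchored to the inner membrane beside the exit of the nascent chain, and its small subunit reads the message. Compared with bacterial ribosomes it has less RNA and many additional proteins. In human patients, defects of several of these proteins impair oxidative phosphorylation, and the heart is among the organs affected.

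Total counts were 8687598 and 6726969 in si3m against 3924434 and 3835750 in siNT, so depth differed with group. Eif3m, the target of the siRNA, had 138 and 191 CPM (counts relative to library size, here scaled by TMM, edgeR's correction for library composition) in si3m against 532 and 451 CPM in siNT, so it fell by 1.59 on the log2 scale (SE 0.11; edgeR adjusted p = 3.41e-08, or 0.0522 with robust estimation). Defining markers of cardiomyocytes were scarce. Of 12 listed, 3 (Tnni3, Nppa and Myl7) had 0 counts in each library, and the 12 summed to 49.0 and 56.2 CPM of the library total in si3m and 77.0 and 70.4 in siNT. Of the 3 tested, Ttn and Pln fell and Tnnt2 rose. The 10 fibroblast markers summed to 12802 and 12433 CPM in si3m and 8033 and 8009 in siNT, and all 7 that were tested rose. Dcn among them had 0 counts in each siNT library and 24 and 20 in si3m, and entered the test only through si3m. Of smooth muscle markers Acta2 rose, Tagln fell and 3 did not pass, with sums of 3538 and 3543 CPM in si3m and 3217 and 3193 in siNT. Macrophage markers summed to 15.4 and 15.2 CPM in si3m and 31.6 and 35.5 in siNT, and Adgre1 fell. Their part in the results below was not tested. Of 12672 genes tested across the table with edgeR's quasi-likelihood test and Benjamini-Hochberg adjustment, 1771 rose and 1757 fell at the threshold of 0.05, or 1428 and 2217 with total count scaling. All changes are relative to the other footprints of a library, and fewer cells of a type cannot be told apart from less of a message per cell.

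Footprints on mitoribosomal messages were few and were somewhat higher in si3m. The 75 rows held 16214 and 12251 counts in si3m, or 0.187% and 0.182% of each library, against 6348 and 6029 counts in siNT, or 0.162% and 0.157%. Low counts kept 2 members out of the test and left 73. Mrpl34 had 12 and 4 counts in si3m and 2 and 0 in siNT, and Mrps28 had 14 and 8 in si3m and 2 and 12 in siNT. A count of 0, as for Mrpl34 in siNT replicate 2, allows up to 3 fragments, or 6 deposited counts. Of the 73, 12 rose and 4 fell, 16.4% and 5.48%, while over all tested genes 14% rose and 13.9% fell, 27.8% together. Among the 10282 tested genes within the members' range of abundance, 11.8% rose and 9.26% fell. The share of members that rose was thus near or slightly above the background, and 57 members did not pass. The share that fell was lower than both, but it rests on 4 members and the difference was not tested. Mrps10 among these 4 had few counts and entered the test only through siNT. The median log2 fold change was 0.25 over the members and 0.016 over all tested genes, with 50 members above 0 and 23 below. Both si3m libraries lay above both siNT libraries for 52.1% of tested members and below them for 15.1%, against 32.6% and 31.3% of all tested genes (63.9% together). Without si3m replicate 1, 11 members were higher and 1 lower, where 10% of all genes were higher and 9.66% lower. Without si3m replicate 2, 8 members were higher and 1 lower, where 10.1% of all genes were higher and 10% lower.

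**Figure D1:**
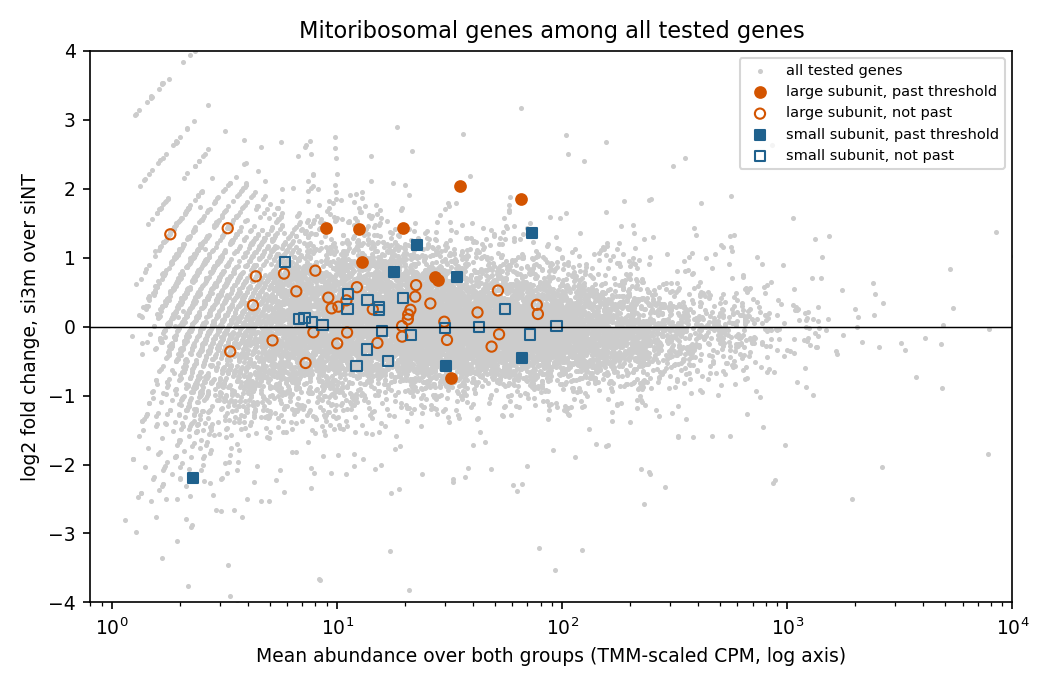
Log2 fold change (si3m over siNT) against mean abundance over both groups (TMM-scaled CPM, log axis) for the 73 tested mitoribosomal genes, circles for the large and squares for the small subunit, filled where past the threshold, over all tested genes in grey (5 genes beyond the x axis and 19 beyond the y axis are not shown). Members range from 1.81 to 94.3 CPM and most open symbols lie near 0.

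With subunits placed by symbol, the shift was larger for the large subunit in these libraries, a difference that was not tested. Large-subunit rows summed to 1098 and 1132 CPM in si3m against 873 and 834 CPM in siNT, a ratio of 1.31. Small-subunit rows summed to 812 and 763 CPM in si3m against 707 and 698 CPM in siNT, a ratio of 1.12. Neither pair of groups overlapped. Counts of large over small subunit rows stood at 1.35 and 1.48 in si3m and 1.24 and 1.20 in siNT, also without overlap. By gene, 8 of 45 tested large-subunit members rose and 1 fell (17.8% and 2.22%), with a median log2 of 0.31. In the small subunit 4 of 28 rose and 3 fell (14.3% and 10.7%), with a median of 0.088. The 3 include Mrps10, which entered the test only through siNT, where it was higher. Over all tested genes 14% rose and 13.9% fell, so the share that rose was near this background in both subunits. Compared library by library, the large-subunit median lay between 0.21 and 0.39 over the 4 pairings of a si3m with a siNT library, and the small-subunit median between 0.024 and 0.086. The gap between the medians, 0.22, became 0.11 when libraries were thinned to 1 depth and 0.38 without si3m replicate 1. Without si3m replicate 1 the large subunit had none lower, and the small subunit had 2 members higher and 1 lower. Without si3m replicate 2 the large subunit had 5 higher and the small subunit none lower.

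**Figure D2:**
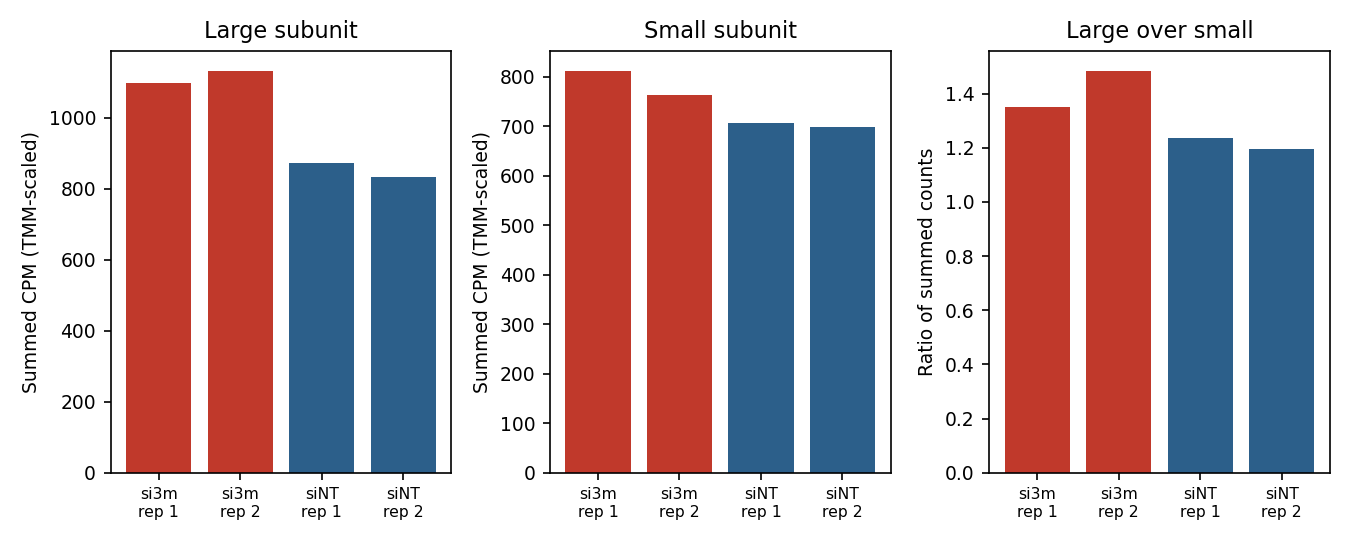
Summed footprint abundance of the 46 large-subunit rows and the 29 small-subunit rows in each library (TMM-scaled CPM), and the ratio of their summed counts; si3m libraries are red and siNT libraries blue. With subunits placed by symbol, each measure is higher in both si3m libraries than in both siNT libraries, by 1.31 times for the large and 1.12 times for the small subunit sums.

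A few genes carried much of the difference between groups in these sums. Without Mrpl57 and Mrpl42, the remaining 44 large-subunit rows summed to 955 ± 29.6 CPM in si3m and 811 ± 20.8 CPM in siNT (SD, n = 2 each), a ratio of 1.18. Without Mrps14, the other 28 small-subunit rows summed to 704 and 659 CPM in si3m and 666 and 656 CPM in siNT, a ratio of 1.03, and the groups overlapped. The subunit given by the symbol is not always the one in which a protein sits. In mammalian structures Mrps30 and Mrps18a belong to the large subunit, and the product of Mrps36 is a component of the 2-oxoglutarate dehydrogenase complex (its current rat symbol is Kgd4). With these assignments 8 large-subunit members rose and 2 fell (median 0.31), and 4 small-subunit members rose and 2 fell (median 0.062). Large-subunit rows then summed to 1163 and 1194 CPM in si3m against 951 and 918 CPM in siNT. Small-subunit rows summed to 738 and 696 CPM in si3m against 622 and 608 CPM in siNT. Counts of large over small stood at 1.58 and 1.72 in si3m against 1.53 and 1.51 in siNT, so si3m replicate 1 lay close to siNT.

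**Figure D3:**
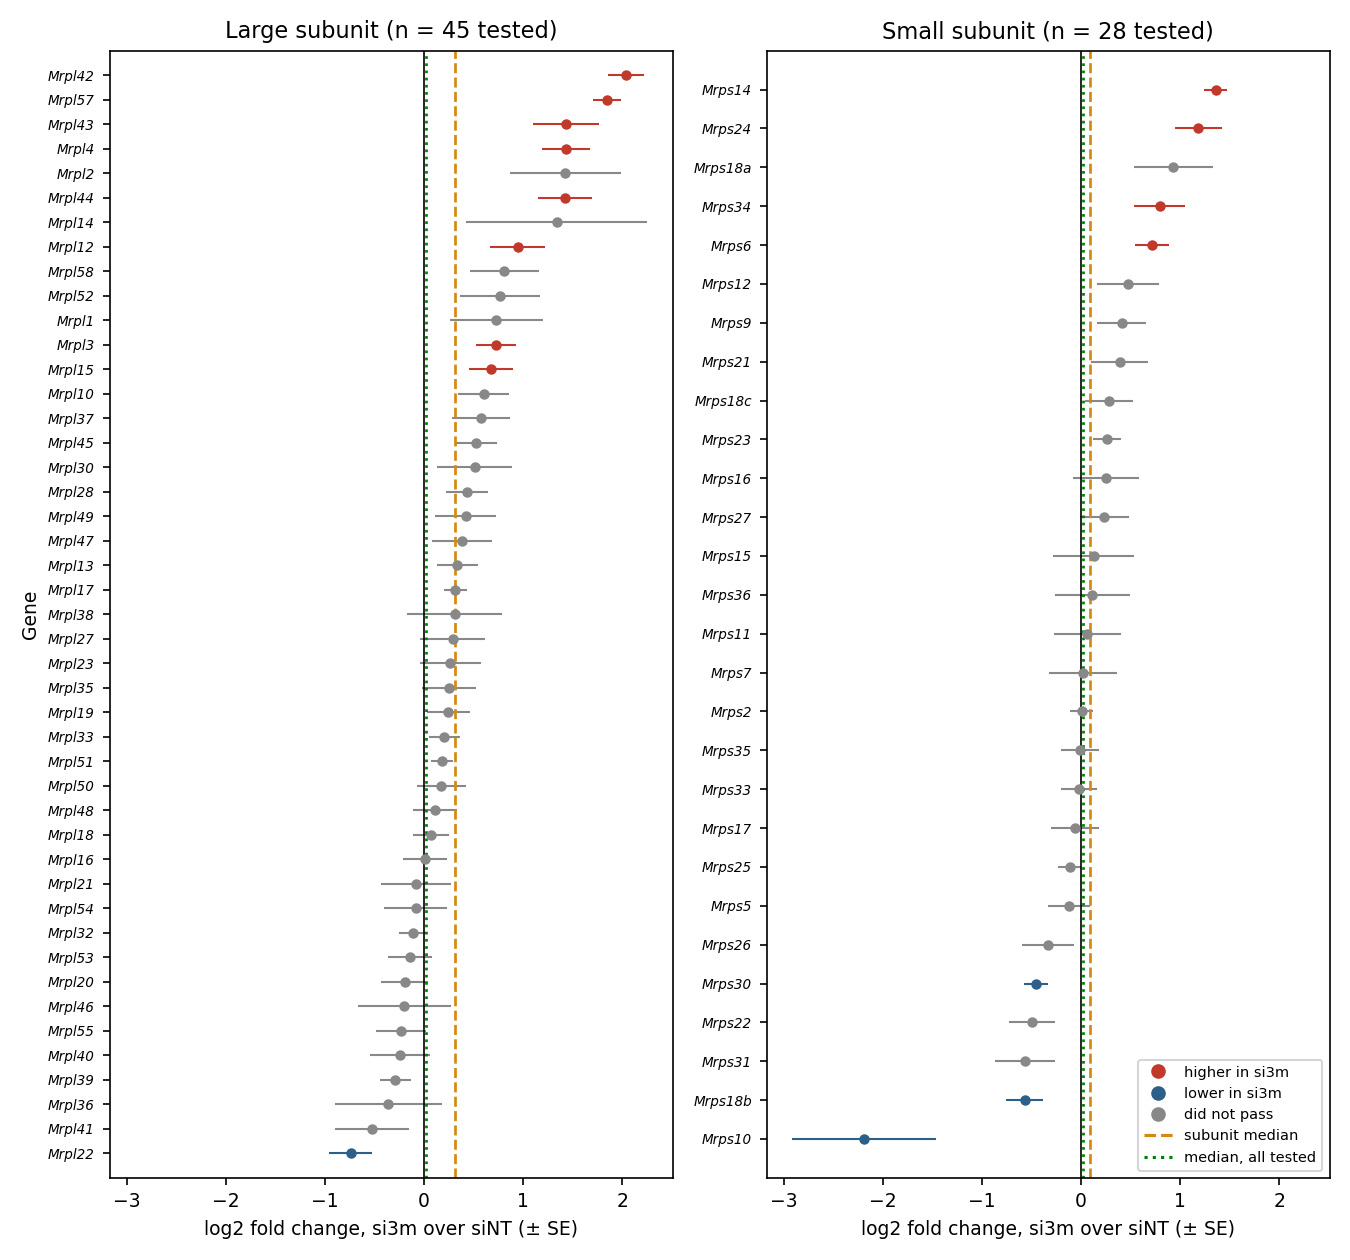
Log2 fold change (si3m over siNT, ± SE) of each tested member, 45 of the large and 28 of the small subunit by symbol, red where it rose, blue where it fell and grey where it did not pass; dashed orange lines mark the subunit medians of 0.31 and 0.088, dotted green lines the median of all tested genes, 0.016. Mrpl42 and Mrps14 head the panels, and Mrps10 has the lowest value and the widest error among those that passed. Mrps10 rests on low counts and entered the test only through siNT.

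In the large subunit 4 of 19 tested proteins with no bacterial counterpart rose and none fell (median log2 0.31), where 14% of all tested genes rose and 13.9% fell. These 4 include the 2 largest fold changes of the subunit. Mrpl57, a small protein found only in mitochondrial ribosomes, had 107 and 98.4 CPM in si3m against 32.4 and 24.9 CPM in siNT. Its log2 fold change was 1.85 (SE 0.14, edgeR adjusted p = 1.17e-07). Mrpl42, also specific to mitochondria, had 55.8 and 57.5 CPM in si3m against 14.9 and 12.7 CPM in siNT (log2 2.03, SE 0.18, edgeR adjusted p = 5.77e-07). In both genes the si3m libraries differed little from each other and stood well above siNT. Mrpl44, whose fold resembles RNase III and which lies near the peptide exit, had 18.1 and 18.3 CPM in si3m against 6.97 and 6.61 CPM in siNT. It rose 2.67-fold (log2 1.42, SE 0.27, edgeR adjusted p = 0.00107). In human patients, mutations in this gene cause an infantile cardiomyopathy. Mrpl43, likewise specific to mitochondria, had 12.0 and 13.9 CPM in si3m against 5.48 and 4.06 CPM in siNT (log2 1.43, SE 0.33, edgeR adjusted p = 0.00442). In none of these genes did the groups overlap, as in 63.9% of all tested genes, and all 4 calls held under each of the 14 alternative fits.

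Of 26 tested large-subunit proteins with a bacterial counterpart, 4 rose, 1 fell and 21 did not pass (median log2 0.30). The share over all tested genes was 14% higher and 13.9% lower. Mrpl4, the counterpart of bacterial L4, had 25.9 and 31.2 CPM in si3m against 11.4 and 9.65 CPM in siNT, a 2.70-fold rise (edgeR adjusted p = 3.16e-04) that held under each alternative. Mrpl3, the counterpart of a protein close to the catalytic centre, had 31.9 and 35.6 CPM in si3m against 17.9 and 22.9 CPM in siNT. It rose 1.65-fold (edgeR adjusted p = 0.0134), a call lost with siNT replicate 1 left out (0.0522) and with si3m replicate 2 left out (0.0983). Mrpl12, the protein of the flexible stalk that recruits translation factors, had 16.0 and 17.9 CPM in si3m against 7.47 and 10.2 CPM in siNT. Its 1.92-fold rise (edgeR adjusted p = 0.0180) was lost without siNT replicate 1 (0.0596) and without si3m replicate 2 (0.09997). Mrpl10, on which the stalk is built, had 29.2 and 24.7 CPM in si3m against 22.9 and 12.7 CPM in siNT and did not pass (adjusted p = 0.0952), but passed under 3 of 14 alternatives, with values from 5.30e-04 without siNT replicate 1 to 0.493 without siNT replicate 2. Mrpl15, the counterpart of a core bacterial protein, had 31.3 and 37.7 CPM in si3m against 26.4 and 16.8 CPM in siNT (log2 0.67, SE 0.22, edgeR adjusted p = 0.0333). That call was lost without siNT replicate 2 (0.191), without si3m replicate 2 (0.191), with total count scaling (0.0590) and at equal depth (0.0504).

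Proteins around the exit of the nascent chain went both ways. Of 7 members placed there, Mrpl44 rose, Mrpl22 fell and 5 did not pass, where 27.8% of all tested genes passed either way. Mrpl22, whose bacterial counterpart reaches into the exit tunnel, had 18.8 and 29.4 CPM in si3m against 44.8 and 35.1 CPM in siNT. It fell by 0.74 on the log2 scale (SE 0.22, edgeR adjusted p = 0.0193), a call lost without siNT replicate 1 (0.0517) and without si3m replicate 1 (0.250). Mrpl45, which tethers the mitoribosome to the inner membrane, had 56.6 and 65.6 CPM in si3m against 55.8 and 29.0 CPM in siNT. The siNT libraries lay far apart, and the adjusted p of 0.0800 became 2.82e-07 without siNT replicate 1 and 0.600 without siNT replicate 2. Mrpl45 passed under 7 of 14 alternatives. Mrpl39 had 45.2 and 41.9 CPM in si3m against 45.8 and 61.0 CPM in siNT and did not pass (adjusted p = 0.198), but passed without siNT replicate 1 (0.0247). Of the 7 members of the central protuberance, which contacts the head of the small subunit, none passed. With so few members this cannot be set apart from the 27.8% of all tested genes. Among the 7, Mrpl58, a peptidyl-tRNA hydrolase that frees stalled ribosomes, had 8.95 and 11.4 CPM in si3m against 6.47 and 5.08 CPM in siNT (edgeR adjusted p = 0.0973). These groupings by place were made after the values had been seen.

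**Figure D4:**
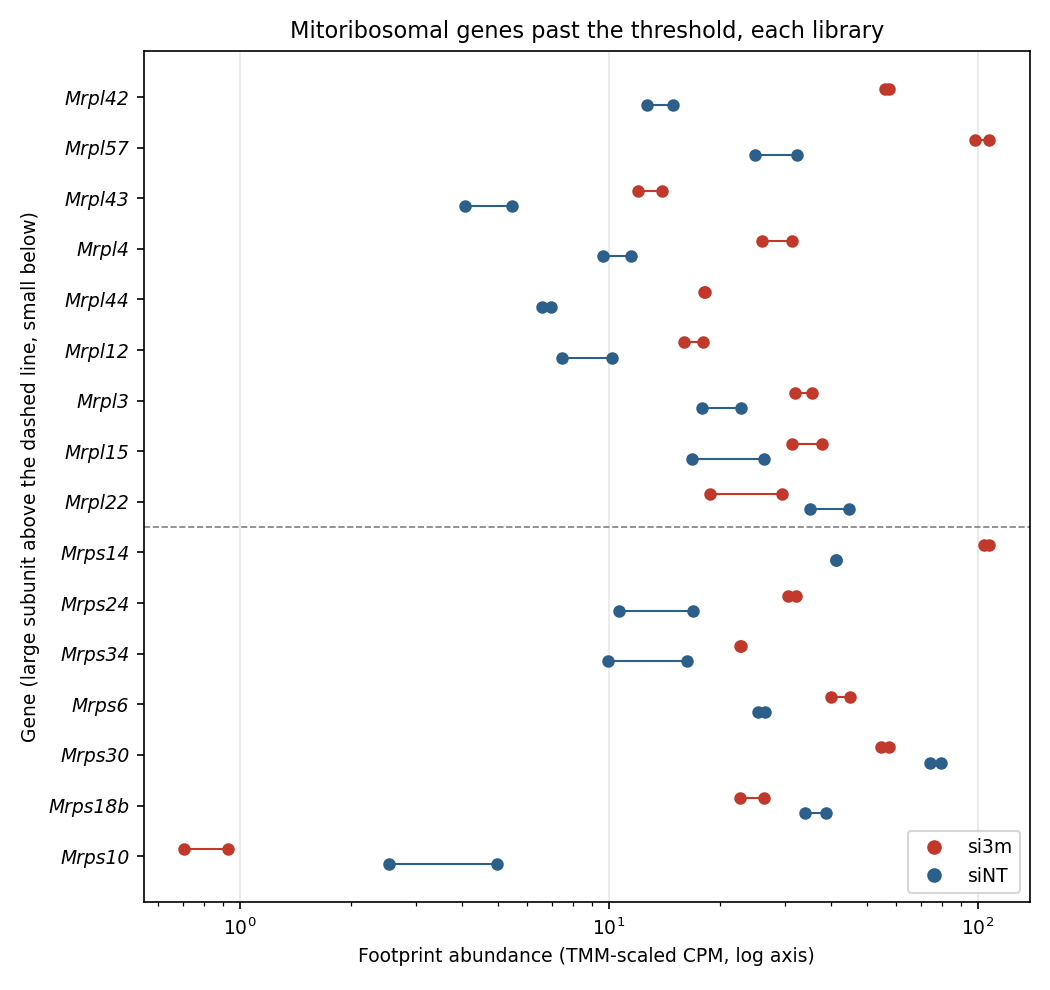
Footprint abundance (TMM-scaled CPM, log axis) in each library for the 16 mitoribosomal genes past the threshold, ordered by subunit and log2 fold change, with si3m in red above siNT in blue; a line joins the 2 libraries of a group. In each gene the groups do not overlap, 12 with si3m to the right and 4 with si3m to the left. The genes were picked by the test on these same libraries, and 63.9% of all tested genes do not overlap.

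In the small subunit Mrps14 stood apart. This protein of the head had 107 and 104 CPM in si3m against 41.3 and 41.2 CPM in siNT, a rise of 1.36 on the log2 scale (SE 0.12, edgeR adjusted p = 3.90e-07). Mrps24, the counterpart of bacterial S3 in the head, had 32.0 and 30.6 CPM in si3m against 16.9 and 10.7 CPM in siNT (log2 1.18, SE 0.24, edgeR adjusted p = 0.00148). Both calls held under each alternative. Mrps6, the counterpart of bacterial S6, had 45.0 and 39.9 CPM in si3m against 25.4 and 26.4 CPM in siNT. It rose 1.64-fold (edgeR adjusted p = 0.00568) and did not pass without si3m replicate 1 (0.0722). Mrps34, specific to mitochondria, had 22.8 and 22.6 CPM in si3m against 9.96 and 16.3 CPM in siNT (edgeR adjusted p = 0.0306). Its call was lost without siNT replicate 1 (0.171), without either si3m library (0.0839 and 0.0676 without replicates 1 and 2), with total count scaling (0.0515) and at equal depth (0.0526).

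The 3 small-subunit members that fell were Mrps30, Mrps18b and Mrps10. Mrps30, which sits in the large subunit of mammals, had 57.2 and 54.4 CPM in si3m against 74.2 and 79.3 CPM in siNT. It fell by 0.46 on the log2 scale (SE 0.12, edgeR adjusted p = 0.0105), and missed the threshold without si3m replicate 2 (0.0775). Mrps18b, one of 3 related to bacterial S18, had 26.4 and 22.6 CPM in si3m against 38.8 and 34.0 CPM in siNT (log2 -0.57, SE 0.19, edgeR adjusted p = 0.0314). Without siNT replicate 1 its adjusted p was 0.110, without si3m replicate 1 it was 0.0648 and without si3m replicate 2 it was 0.243. Its paralogs had other values. Mrps18a had 8.24 and 7.12 CPM in si3m against 3.48 and 4.57 CPM in siNT, with no overlap but no call (log2 0.93, SE 0.40, adjusted p = 0.0991). Mrps18c had 17.2 and 16.4 CPM in si3m against 14.9 and 12.7 CPM in siNT (log2 0.28, adjusted p = 0.432). Mrps10, the counterpart of bacterial S10, rested on 6 and 6 deposited counts in si3m and 20 and 10 in siNT. Both si3m libraries were thus at the level that a count of 0 allows. Mrps10 entered the test only through its siNT libraries, where it was higher, so the filter itself favoured a fall. In fragments the si3m to siNT ratio was 0.213 (95% exact interval 0.0676 to 0.580, counting error only, reads counted without molecular identifiers), and the edgeR adjusted p of 0.0342 was lost under 6 of 12 alternatives, each library left out except siNT replicate 2 among them (0.342, 0.289 and 0.224 without siNT replicate 1, si3m replicate 1 and si3m replicate 2).

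The 3 most abundant members of each subunit that did not pass had log2 fold changes between -0.11 and 0.32. Mrps2, the counterpart of bacterial S2, had 103 and 85.4 CPM in si3m against 101 and 87.9 CPM in siNT, a log2 fold change of 0.0047 (SE 0.12) that was negative under 8 of 14 alternatives. Mrps25, specific to mitochondria, had 69.9 and 67.4 CPM in si3m against 72.7 and 76.2 CPM in siNT, and Mrps23, also without a bacterial counterpart, had 64.3 and 57.2 CPM in si3m against 47.3 and 54.4 CPM in siNT. Of the large subunit, the mitochondria-specific Mrpl51 had 81.5 and 84.1 CPM in si3m against 74.2 and 71.6 CPM in siNT, and Mrpl32, the counterpart of bacterial L32, had 49.0 and 51.7 CPM in si3m against 52.3 and 56.4 CPM in siNT. Mrpl17, the counterpart of bacterial L17, had 86.0 and 84.9 CPM in si3m against 74.2 and 63.0 CPM in siNT, just short of the threshold (log2 0.32, SE 0.12, adjusted p = 0.0565), and passed under 7 of 14 alternatives, with values from 0.0112 without siNT replicate 1 to 0.271 without siNT replicate 2. Mrps22, mutated in a human disorder of mitochondrial translation with cardiomyopathy, had 13.9 and 13.9 CPM in si3m against 18.9 and 20.3 CPM in siNT (log2 -0.50, SE 0.23, adjusted p = 0.133). Mrps12, at the decoding centre, had 10.6 and 15.5 CPM in si3m against 7.47 and 11.2 CPM in siNT and overlapped. Mrps9, of the head, had 22.8 and 22.0 CPM in si3m against 12.9 and 20.8 CPM in siNT and passed without siNT replicate 2 alone (adjusted p = 0.0194).

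Grouped by origin, 7 of 41 tested members with a bacterial counterpart rose and 2 fell (median log2 0.28). Of 31 specific to mitochondria, 5 rose and 2 fell (median 0.17). Over all tested genes 14% rose and 13.9% fell, so the share that rose was near this background in both classes. The 2 classes had nearly the same median in the large subunit, 0.31 for those specific to mitochondria and 0.30 for the others. In the small subunit by symbol, 3 of 15 with a bacterial counterpart rose and 1 fell (median 0.25). Of the other 12, listed as specific to mitochondria, 1 rose and 2 fell (median -0.066). The 2 that fell were Mrps30, which sits in the large subunit, and Mrps18b, which is related to bacterial S18. Neither is thus a small-subunit protein without a bacterial relative, and the small-subunit contrast depends on where they are placed. The grouping by origin was also made after the values had been seen and was not tested.

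Some of these counts cannot be assigned with certainty, since the strand setting of the counting is not given. In the GRCr8 annotation 14 members overlap a gene with a row of its own, 3 of them among the 16 that passed. Mrpl57 overlaps Ska3, a kinetochore gene that also rose, with 462 and 366 counts in si3m against 76 and 104 in siNT (log2 1.29, SE 0.18). Mrps6 overlaps the transporter gene Slc5a3, which fell by 1.04 on the log2 scale (SE 0.12) while Mrps6 rose. Mrpl22 overlaps Gemin5, which did not pass (log2 -0.23). Mrpl43 overlaps Twnk, which has no row. Processed pseudogenes are annotated for 23 members, with 2 each for Mrpl42 and Mrpl15 and 1 each for Mrps10 and Mrps18b among those that passed, and Mrpl42 also has a protein-coding copy, Mrpl42l1. None of the 40 pseudogenes has a row. The same limit holds for genes of the lists given further below. Afg3l2, which fell, overlaps Prelid3a, which also fell (log2 -0.59, SE 0.18). Mtif3 and Mettl15, which fell, overlap Gtf3a (log2 0.75, SE 0.24) and Kif18a (log2 1.06, SE 0.22), which rose.

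To set the genes that moved beside their regulatory sequence, promoters were read for the 60 members in the RefSeq table (GRCr8), from 250 bases before to 30 after the annotated start. Genes of the mitochondrial translation machinery are known targets of nuclear respiratory factor 1 (NRF-1), of the ETS-family factor GABP and of YY1. Searched on both strands, and none containing another, were CCGGAAG for ETS factors, ATGGCGG for YY1 and, for NRF-1, the letters GCGCA followed by any base and then GCGC. The ETS letters stood in 20 of 60 members (33.3%), against 19.1% of 8354 protein-coding genes tested here and 11.2% of all 19005 protein-coding promoters in the table. The NRF-1 letters stood in 13.3% of members against 11.1% of the tested genes, and the YY1 letters in 11.7% against 9.10%. Of the 8 members that rose and have a promoter in the table, 3 held the ETS letters, 2 the NRF-1 letters and 1 the YY1 letters, and of the 4 that fell, 2, 1 and 1 did. Members that did not pass had the ETS letters in 15 of 47 promoters (31.9%). A match is a description of the letters and not evidence of binding.

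The 3 members with the smallest p among those that rose, and the 2 among those that fell, are shown to compare promoters of genes that moved in opposite directions. They lie at chr15:36086207-36086486 (plus strand) for Mrpl57, chr13:74962347-74962626 (plus) for Mrps14, chr7:32028493-32028772 (minus) for Mrpl42, chr2:52195875-52196154 (minus) for Mrps30 and chr10:42845660-42845939 (plus) for Mrpl22, all in GRCr8. Each is written in the direction of the gene with motif letters in capitals.
Mrpl57: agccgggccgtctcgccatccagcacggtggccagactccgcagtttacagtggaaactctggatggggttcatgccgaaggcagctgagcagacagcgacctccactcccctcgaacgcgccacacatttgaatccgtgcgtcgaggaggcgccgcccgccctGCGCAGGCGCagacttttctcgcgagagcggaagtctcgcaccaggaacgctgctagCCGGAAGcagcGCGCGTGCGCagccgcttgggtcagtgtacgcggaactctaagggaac
Mrps14: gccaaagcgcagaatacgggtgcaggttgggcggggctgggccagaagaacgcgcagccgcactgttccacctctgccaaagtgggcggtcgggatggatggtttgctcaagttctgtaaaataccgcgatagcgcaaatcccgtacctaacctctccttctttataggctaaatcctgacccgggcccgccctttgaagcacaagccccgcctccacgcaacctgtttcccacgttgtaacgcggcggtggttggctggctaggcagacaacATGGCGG
Mrpl42: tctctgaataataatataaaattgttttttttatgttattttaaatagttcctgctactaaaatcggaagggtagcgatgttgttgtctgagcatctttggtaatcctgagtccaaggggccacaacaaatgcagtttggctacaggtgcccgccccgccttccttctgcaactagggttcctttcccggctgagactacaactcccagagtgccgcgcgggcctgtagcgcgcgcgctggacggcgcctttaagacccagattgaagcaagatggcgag
Mrps30: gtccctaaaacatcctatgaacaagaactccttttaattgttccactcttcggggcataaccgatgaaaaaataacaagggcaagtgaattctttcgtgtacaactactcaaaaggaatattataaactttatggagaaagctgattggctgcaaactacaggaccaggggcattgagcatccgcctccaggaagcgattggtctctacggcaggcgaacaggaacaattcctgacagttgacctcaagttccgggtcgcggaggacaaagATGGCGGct
Mrpl22: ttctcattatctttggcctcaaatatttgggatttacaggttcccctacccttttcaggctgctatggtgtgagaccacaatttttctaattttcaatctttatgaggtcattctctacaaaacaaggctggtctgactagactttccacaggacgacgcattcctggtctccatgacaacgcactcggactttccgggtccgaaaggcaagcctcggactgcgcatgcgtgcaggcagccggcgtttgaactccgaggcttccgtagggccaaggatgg
Mrpl57 held the NRF-1 and ETS letters. Mrps14, which rose, and Mrps30, which fell, both held the YY1 letters near the annotated start, and Mrpl42 and Mrpl22 held none of the 3 motifs.

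A further 3 rows name mitoribosomal proteins in lower case and so fall outside the symbol rule. Of these, mrpl9 had 31.6 and 34.6 CPM in si3m against 16.4 and 13.7 CPM in siNT and rose (log2 1.13, SE 0.21, edgeR adjusted p = 8.01e-04), while mrpl11 (log2 0.15) and mrpl24 (log2 -0.73, adjusted p = 0.0997) did not pass. Among mitoribosomal proteins with other names 2 of 5 tested rose, where 14% of all tested genes rose and 13.9% fell. Ptcd3, a small-subunit protein at the entry of the message, had 1561 and 1613 CPM in si3m against 511 and 552 CPM in siNT (log2 1.58, SE 0.046, edgeR adjusted p = 7.75e-13). The snoRNA gene Snord94 lies within Ptcd3 and has no row, and whether its fragments are in these counts was not tested. Chchd1 (log2 0.40, SE 0.13) passed at an edgeR adjusted p of 0.0354, and was lost with total count scaling (0.0884), in DESeq2 (0.0546), without siNT replicate 2 (0.137) and without either si3m library (0.174 and 0.0923 without replicates 1 and 2). Dap3, Aurkaip1 and Gadd45gip1 did not pass.

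Factors that build and serve the mitoribosome went both ways, as did all tested genes, of which 14% rose and 13.9% fell. Of 24 tested genes for assembly and rRNA modification, 4 rose and 2 fell (median log2 0.21), but none was higher and 1 was lower without si3m replicate 1, 1 was higher and 1 lower without si3m replicate 2, and 2 were higher with total count scaling and in DESeq2. Mtg1, a GTPase of large-subunit assembly, rose by 1.64 on the log2 scale (SE 0.43), and missed the threshold without si3m replicate 1 (adjusted p = 0.0710). Mettl15, which methylates the small-subunit rRNA, fell by 1.14 (SE 0.30; adjusted p = 0.0701 without si3m replicate 1), and the helicase Ddx28 fell by 0.99 (SE 0.28; 0.125 without si3m replicate 2). Rpusd4, Tfb1m and Malsu1 rose with adjusted p between 0.0343 and 0.0422, and each lost its call without si3m replicate 1 (0.107, 0.318 and 0.245).

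Of 16 translation factors and helpers 1 rose and 1 fell (median log2 0.15). Beside this list and those that follow, 14% of all tested genes rose and 13.9% fell. Slirp, a partner of Lrpprc in keeping mitochondrial messages stable, had 35.1 and 38.1 CPM in si3m against 13.9 and 19.3 CPM in siNT and rose by 1.14 on the log2 scale (SE 0.21). Mtif3, an initiation factor of mitochondria, fell by 1.19 (SE 0.31), a call lost without si3m replicate 2 (adjusted p = 0.0867), and 2 of the list were lower without siNT replicate 1 and with total count scaling. Among 18 aminoacyl-tRNA synthetases and related enzymes Lars2 rose (log2 1.10, SE 0.30; adjusted p = 0.126 without si3m replicate 1) and Yars2 fell by 0.88 (SE 0.20), with a list median of 0.096. These counts were small and moved, to 2 higher and 3 lower without siNT replicate 1, 2 higher without siNT replicate 2 and none higher without si3m replicate 1, and 2 were lower with total count scaling and in 4 other fits. Of 12 regulators of mitochondrial transcription and biogenesis, Esrra rose by 1.46 on the log2 scale (SE 0.39) and 11 did not pass (median 0.030), with 2 higher without siNT replicate 1. Of 11 chaperones and proteases none rose and 3 fell, namely Clpx by 0.58 (SE 0.10), Afg3l2 by 0.65 (SE 0.15) and Yme1l1 by 0.44 (SE 0.10), with a median of 0.027. Afg3l2 lost its call without si3m replicate 1 (0.0552). Without siNT replicate 2, 1 gene of this list was higher.

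The products of the mitoribosome itself showed no common direction. Cycloheximide, the drug used here, halts cytosolic ribosomes and not mitoribosomes, and the source of these fragments was not tested. Of the 13 proteins encoded by mitochondrial DNA, 4 rose and 3 fell, with a median log2 of 0.055. Over all tested genes 14% rose and 13.9% fell, but the 13 were not matched to these in depth. ATP8, the lowest of the 13, had 284 and 304 counts in siNT, against a median of 85 over all tested genes. Smaller changes could thus pass in this list. ND5 rose by 0.38 on the log2 scale (SE 0.046), ND4 by 0.33 (SE 0.056), ND1 by 0.30 (SE 0.059) and CYTB by 0.21 (SE 0.040). COX2 had 130 and 125 CPM in si3m against 232 and 232 CPM in siNT and fell by 0.87 (SE 0.068), ND3 fell by 0.34 (SE 0.059) and COX3 by 0.22 (SE 0.031). All 7 calls held under each of the 14 alternative fits.

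**Figure D5:**
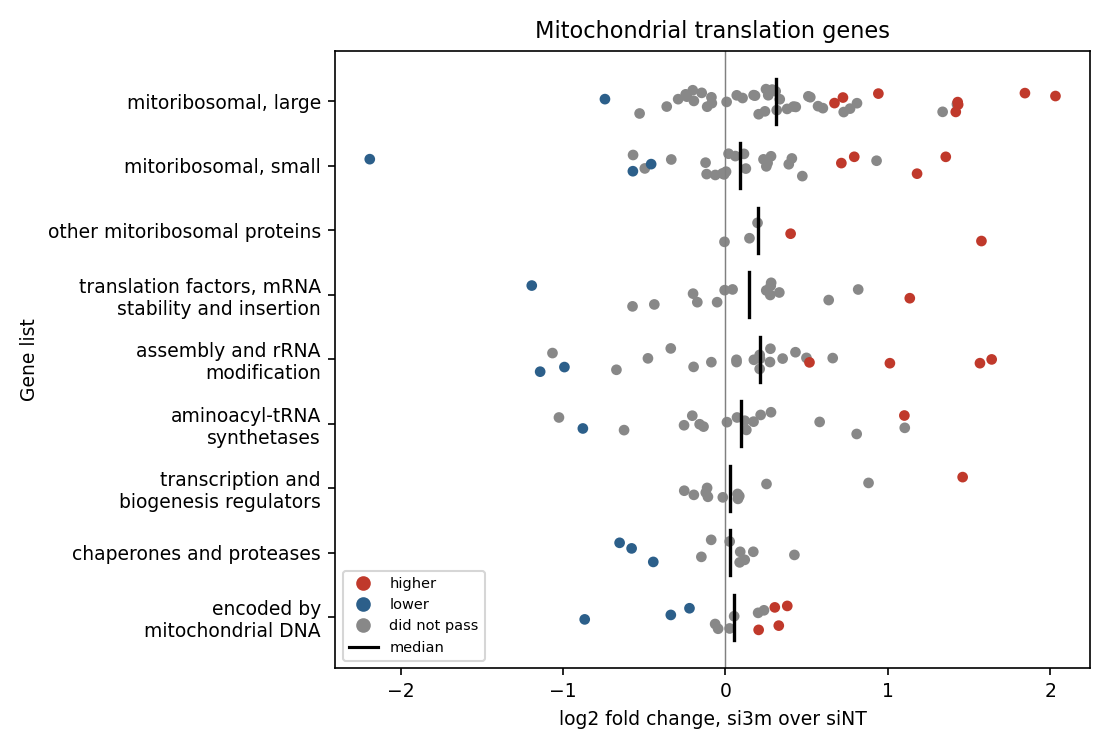
Log2 fold change (si3m over siNT) of each tested gene in the mitoribosomal subunits and in 7 lists of mitochondrial translation, red where it rose, blue where it fell, grey where it did not pass; points are spread vertically for legibility and black bars are medians. The large subunit has the highest median, 0.31, and values of every list with more than 5 genes lie on both sides of 0.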

How the data were processed

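Ribosome-protected fragments were collected after cycloheximide treatment and ultracentrifugation, and libraries were made with a small RNA kit, per the labels' protocols. Each deposited file gives raw counts per gene as the authors made them, whole numbers without scaling. Tools listed in the submitters' processing notes are HISAT2 2.2.1, Trimmomatic 0.40, featureCounts, DESeq2 and limma, with the build rn6. Their roles, the annotation, and how strand and multiply matching reads were handled are not stated there. Between 94.9% and 97.3% of counts above 0 were even, so counting limits were judged on fragments (deposited counts divided by 2).

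All genes were fitted together with edgeR 4.0.16 in R 4.3.3 (genes kept by filterByExpr at a minimum count of 10, scaled by TMM, fitted with glmQLFit and given the two-sided glmQLFTest with Benjamini-Hochberg adjustment at 0.05), with no replicate block, and only the relevant genes are printed. SE is the log2 fold change divided by the root of the F statistic. CPM is TMM-scaled except in the sums of marker genes. In counts simulated for this comparison from 12672 genes, the share recovered was 25.8% for 62 genes with a 1.5-fold change. It was 77.1% for 70 with a 2-fold and 92.6% for 68 with a 4-fold change, and the test called 3 of 12232 unchanged ones. The simulation gave every gene the same spread (dispersion 0.0109) and did not copy the even counts. It covered all tested genes, with a median of 85 counts in siNT against 56 for members, so these shares may be too favourable for the members. Median chi-square between replicates was 1.40 (siNT) and 1.48 (si3m) times that of counting noise, so all 4 libraries were kept. Alternatives were 3 other scalings, DESeq2 1.42.0, other filters, the replicate block, robust estimation, halved counts, thinning to 3835750 counts and leaving out each library.

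The members and lists were chosen with earlier results of these data known. Values in each library are given for members past the threshold, the 3 most abundant others of each subunit, the Mrps18 paralogs and 5 genes listed for their human disease (Mrpl3, Mrpl12, Mrpl44, Mrps14 and Mrps22); Mrpl10, Mrpl39, Mrpl45, Mrpl58, Mrps9 and Mrps12 were added after their values were seen, as were the origin and place groupings. Symbols were matched to RefSeq genes of GRCr8, 74 of 75 by current symbol; the files use another build, and GRCr8 served for names, neighbours and promoters only.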

Additional observations from a re-analysis of the deposited data

How the results depend on the processing

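Of the recomputed counts and medians, 164 stayed within 1.5 times the reported count or within the spread between libraries and 17 moved further. With total count scaling the median log2 fold change was 0.23 for the large and 0.0093 for the small subunit. The small-subunit median was 0.057 in DESeq2, 0.054 with the stricter filter and 0.16 with libraries thinned to 1 depth, where the gap between the subunits was 0.11. Placing proteins by structure gave 2 large-subunit members lower. Leaving out 1 library at a time gave 8 to 14 members higher and 1 to 4 lower; 5 to 9 higher and 0 to 1 lower in the large subunit; 2 to 5 higher and 0 to 3 lower in the small subunit; medians of 0.26 to 0.43 and 0.047 to 0.11, and gaps of 0.16 to 0.38. In those fits the lone library of a group is assumed to vary like the other group. The cause of these movements was not tested. Of the 16 members that passed, 7 (all higher) passed in each fit run, none of the 4 that fell did, and none changed sign; 10 others passed in at least 1. Mrps2, near 0, turned to -0.0044 with DESeq2 size factors, -0.075 with total count scaling, -0.0018 in DESeq2, -0.0032 with the stricter filter, -0.0010 with the replicate block, -0.063 when thinned, -0.083 without siNT replicate 2 and -0.13 without si3m replicate 1 (0.14 without si3m replicate 2, the highest).

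Replicate numbers were treated only as labels. Same-numbered libraries did not deviate together (correlation -0.022), but with 2 libraries per group this cannot exclude a shared culture or preparation. With the replicate block 1851 genes were higher and 1843 lower, against 1771 and 1757, and 15 members were higher and 3 lower. With the lower-case symbols added, 13 members were higher and 4 lower. Members had a median of 126 counts in si3m and 56 in siNT, so a change of a single member could be missed at this depth, also above 1.5-fold. Mrpl2, 2.69-fold higher in si3m, and Mrpl14, 2.53-fold higher, did not pass (edgeR adjusted p = 0.0725 and 0.305). Mrps30 and Mrps18b passed with changes below 1.5-fold.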
